A study of Mus musculus with 39 samples.

Results

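Complement components and regulators were followed in cells of mouse brown fat over a diet time course. The 9 genes were the C1q subunits C1qa, C1qb and C1qc, the proteases C2 and Cfb, the thioester proteins C4b and C3, the positive regulator Cfp and the receptor C3ar1. They were chosen by gene symbol, and 9 of 9 had a probe that could be tested, among 24717 genes tested in all. C57BL/6J mice received a low fat diet with 10% of calories from fat (LFC), a sucrose-rich high fat diet with 60% of calories from fat (HFC), or that same high fat diet with 5, 20 or 75 µg of the botanical formulation KAL-1 (HF5, HF20 and HF75), starting after weaning at 3 to 4 weeks of age. RNA of the stromal vascular cells of brown fat, which the labels call infiltrating macrophages, was measured on 39 arrays of 1 colour. LFC had 10 arrays (Day 1, 6, 10 and 14 and Week 0, 3, 9, 12, 15 and 18), HFC had 11 (the same labels and Week 6), and each KAL-1 dose had 6 (Week 3 to Week 18). Each array held 1 diet at 1 time label, so no diet was repeated under a label, and how many animals an array stood for is not given in the labels. The spread behind every test below is therefore the spread over time labels.

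Complement is a cascade of plasma and tissue proteins that tags surfaces for uptake and attracts leukocytes. C1q recognises bound antibody or damaged cells and activates the proteases C1r and C1s, which cleave C4 and C2 to form the classical convertase, while factor B (Cfb), factor D (Cfd) and properdin (Cfp) build and stabilise the alternative one. Both convertases cleave C3, whose small fragment is sensed by C3ar1. In adipose tissue, C1q is typical of resident macrophages, fibroblasts are a known source of C1r, C1s and C3, and fat cells are the main source of factor D.

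The samples were first set against marker genes. All values are log2 signal relative to the 75th percentile of the array. The macrophage gene Emr1 ranged from -1.42 to 4.15 with a median of 1.68, and all 10 macrophage markers were well above background on at least 36 arrays. Transcripts of fat cells were abundant as well, with a median of 6.23 for Ucp1, the uncoupling protein of brown fat cells, and 3.85 for Adipoq, so the samples were not macrophages alone. In such mixed samples fewer cells of a type and less RNA per cell cannot be told apart. Some arrays stood apart. LFC Day 10 and HFC Week 12 had a Ucp1 level of -3.16 and -3.18 and a level of the mesothelial gene Upk3b of 0.58 and 0.75, against a Upk3b median of -5.15. HF20 Week 15 had 71.4% of its spots marked as nonuniform or outliers, HF5 Week 12 had 18.6% and HFC Week 12 had 11.1%. Marked spots were dropped, so that C1qb has no value on HF5 Week 12 and HF20 Week 15, and C4b and Cfp have none on HF5 Week 12.

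By position in the RefSeq annotation of GRCm38.p6, the C1q genes form a tandem cluster on chromosome 4, with C1qb at chr4:136880126-136886200, C1qc at chr4:136889801-136892936 and C1qa at chr4:136895916-136898844. C2 (chr17:34862602-34882100) and Cfb (chr17:34856374-34862514) are neighbours, and C4b lies near them at chr17:34728139-34743902. C3 is elsewhere on the chromosome at chr17:57203967-57228136. C3ar1 is at chr6:122847140-122856157 and Cfp at chrX:20925454-20931555. Promoter windows from RefSeq (GRCm38.p6), with 250 bases before and 50 after the gene start, could be matched for 5 of the 9 members. The windows of C1qb (chr4:136886151-136886450, minus strand) and C1qc (chr4:136892865-136893164, minus strand) are shown because these genes moved together across arrays, and that of C3 (chr17:57228087-57228386, minus strand) because C3 followed C1qc less closely and had a lower correlation still with C1qb. They are given 5′ to 3′ along the gene, with matches to the motifs searched in capitals.
C1qb: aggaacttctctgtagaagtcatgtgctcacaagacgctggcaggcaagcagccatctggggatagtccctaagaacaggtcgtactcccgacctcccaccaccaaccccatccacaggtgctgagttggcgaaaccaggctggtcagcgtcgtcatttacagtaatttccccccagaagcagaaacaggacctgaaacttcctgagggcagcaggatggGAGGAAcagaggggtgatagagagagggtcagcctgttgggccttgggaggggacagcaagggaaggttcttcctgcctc
C1qc: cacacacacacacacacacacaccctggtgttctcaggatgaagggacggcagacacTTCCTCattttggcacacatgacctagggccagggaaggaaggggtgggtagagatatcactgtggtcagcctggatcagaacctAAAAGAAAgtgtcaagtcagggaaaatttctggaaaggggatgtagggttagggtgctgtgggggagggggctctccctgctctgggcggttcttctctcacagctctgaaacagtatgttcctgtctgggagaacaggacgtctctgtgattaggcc
C3: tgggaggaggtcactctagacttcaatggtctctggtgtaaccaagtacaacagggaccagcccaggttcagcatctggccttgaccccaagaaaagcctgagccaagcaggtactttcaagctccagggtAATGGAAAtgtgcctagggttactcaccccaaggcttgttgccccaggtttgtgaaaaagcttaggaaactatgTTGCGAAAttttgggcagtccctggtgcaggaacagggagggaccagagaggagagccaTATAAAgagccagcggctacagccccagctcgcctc
The letters searched on both strands were GAGGAA, the core read by PU.1 and other ETS factors, AANNGAAA, the core of interferon regulatory factors, TTNNGCAA for C/EBP factors, GGANNTTCC for NF-κB and TATAAA for a TATA box. GAGGAA was found once in the C1qb window, from base 221 to base 226, and once on the opposite strand in the C1qc window, from base 58 to base 63. The C3 window held no GAGGAA, and had TTNNGCAA on the opposite strand from base 206 to base 213, AANNGAAA from base 132 to base 139 and TATAAA from base 265 to base 270, past the gene start. GGANNTTCC was in none of the 5 windows. The C1qc window also held AANNGAAA, from base 143 to base 150. Of 32544 promoter windows of this length, 28.1% held GAGGAA, 23.9% AANNGAAA, 10.8% TTNNGCAA, 4.27% GGANNTTCC and 13.6% TATAAA. These matches are a description of the letters in the windows and no measure of binding.

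The C1q subunits were read from 1 probe each, well above background on 38 arrays (C1qa) or on all 39 (C1qb and C1qc). C1qa ranged from 0.28 to 2.60 in LFC with a median of 1.55, and from -0.31 to 3.82 in HFC with a median of 1.88. The HF5 and HF75 arrays had medians of 1.23 and 1.42, and the HF20 arrays lay between -0.31 and 2.25. The 5 diets overlapped almost entirely, and the highest value belonged to HFC Week 12. C1qb had a median of 1.22 in LFC and 0.97 in HFC, and C1qc had 2.31 and 2.35. The lowest LFC value of all 3 subunits was that of Week 12, at 0.28, -0.83 and 1.04.

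C2 and C4b, the substrates of C1s, had a slightly larger SD over arrays, 1.17 and 1.15 against 0.92 to 1.04 for the C1q subunits. C1qc had the widest range of the members, 5.80, against 4.56 for C2 and 5.24 for C4b. That range rests on single arrays. The lowest C1qc value, -1.03, was that of HF20 Week 15, with 71.4% of spots marked, and the next lowest was 0.68. The highest, 4.76, was that of HFC Week 12. C2 ranged from 0.68 to 5.18 in LFC with a median of 2.44, and from 0.63 to 4.78 in HFC with a median of 2.77. The highest LFC value was Day 10 and the highest HFC value Week 12, the pair of arrays with little Ucp1. A second C2 probe followed the first with a correlation of 0.93. C4b ranged from -1.05 to 3.42 in LFC (median 1.81) and from 0.20 to 4.19 in HFC (median 1.70). The C4b probe also lists a transcript of the near-identical C4a gene, so its signal may hold both.

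C3, the component on which all pathways converge, was bright on every array, from 4.56 to 7.34 in LFC (median 5.67), from 3.56 to 7.52 in HFC (median 6.11), and with medians of 6.22, 6.07 and 6.43 in HF5, HF20 and HF75. Its spot was saturated on 7 arrays (HFC Week 6, 9 and 12, HF5 Week 9 and 15, LFC Week 12 and HF20 Week 12), where the value is a lower bound. A second C3 probe was well above background on 12 arrays and correlated with the first at 0.66. Cfb had medians of 2.28 in LFC, 2.56 in HFC, 2.17 in HF5, 1.72 in HF20 and 2.01 in HF75, with the HF20 arrays between -0.54 and 2.12. Cfp, which macrophages and neutrophils secrete, had medians from 1.90 (HFC) to 2.48 (HF20). C3ar1 was dim. Its probe was well above background on 25 of 39 arrays, and it ranged from -4.79 to -2.15 in LFC (median -3.80) and from -4.94 to -0.82 in HFC (median -3.03).

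**Figure D1:**
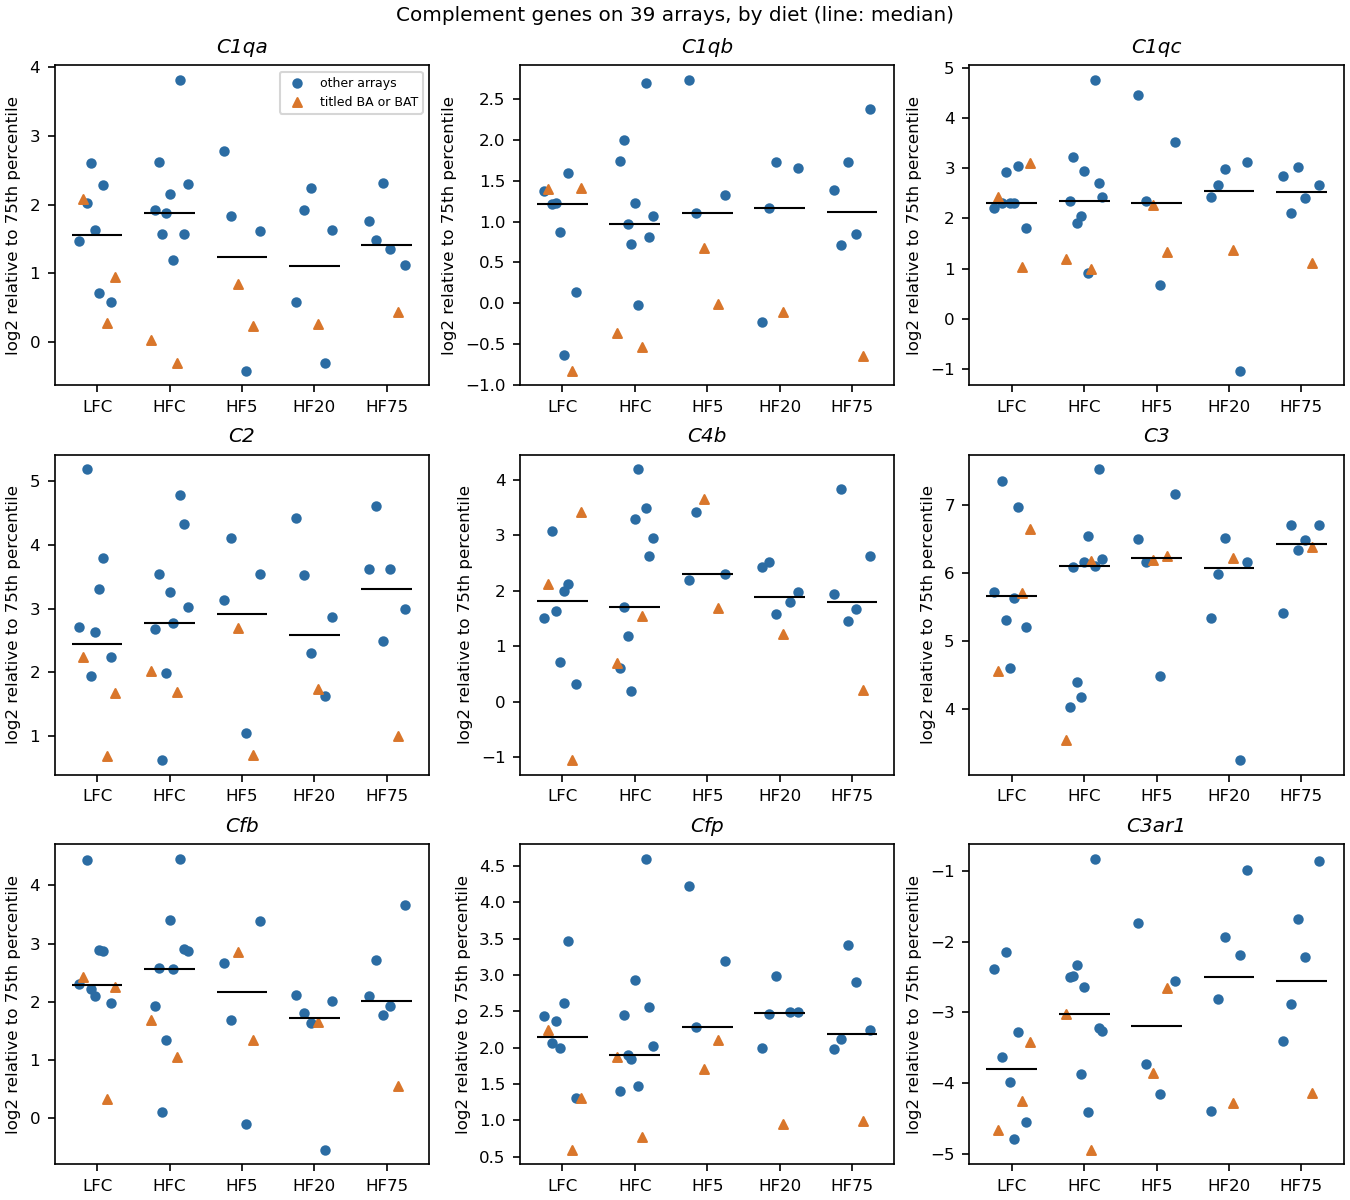
Level of the 9 genes on each array (y axis, log2 signal relative to the 75th percentile of the array) by diet (x axis); each point is 1 array, orange triangles are the 9 arrays titled BA or BAT, and lines are medians. The diets overlap for every gene, and the triangles sit mostly low for C1qa, C1qb, C2, Cfp and C3ar1 but not for C3, whose titled median was 6.20 against 6.13 for the others. After normexp correction only C3ar1 passes as lower.

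The question whether high fat feeding changed these genes was asked with HFC against LFC, in 1 limma fit of diet and time label. No member passed an adjusted p of 0.05. The same held for all probes, with 0 of 34035 called (0%), 959 at an unadjusted p under 0.05, and 0 by the methods' t-test after Benjamini-Hochberg adjustment. The differences of the members ran from -0.32 (C3, SE 0.37) to 0.74 (C3ar1, SE 0.48) on the log2 scale. A total of 6 of 9 were higher in HFC, with a median difference of 0.15, beside 0.043 and 53.8% higher over all genes tested. The C1q subunits differed by 0.22 (C1qa, 95% interval -0.68 to 1.12), 0.20 (C1qb, -0.69 to 1.09) and -0.0090 (C1qc, -0.96 to 0.94). These intervals hold the differences compatible with the data and are no limit of detection. In data simulated for this comparison, 3 of 67 changes of 2-fold and 34 of 67 of 4-fold were recovered. C4b differed by 0.29 (SE 0.44), Cfp by 0.15 (SE 0.44), C2 by 0.040 (SE 0.48) and Cfb by -0.16 (SE 0.45). Without the Week 12 arrays C1qa, C1qb, C2, C4b and Cfp turned negative, at -0.11, -0.14, -0.39, -0.18 and -0.25. For C3 and C2 the 2 probes disagreed in sign, with 0.51 (SE 0.50) for the second C3 probe and -0.16 (SE 0.44) for the second C2 probe. The second C3ar1 probe had 0.55 (SE 0.53). The brighter C3 probe also turned with quantile normalization (0.17). The 10 macrophage markers had a median difference of 0.097 and the 8 fibroblast markers 0.12, with 0 called in either list.

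Single time labels differed far more than the average. C1qa in HFC minus LFC was 3.54 at Week 12 and -2.60 at Week 9, and was above 0 at 6 of 10 labels. At Week 9 the HFC array is titled BA or BAT and the LFC array is not, and they were scanned on different dates. At Week 12 the LFC array is the titled one, and the HFC array is the one with little Ucp1 and 11.1% of spots marked. Among the 6 labels where both diets were scanned on 1 date, C1qa was higher in HFC at 5, with a mean of 0.94, which was 0.42 without Week 12. C3 was higher at 2 of the 6, with a mean of -0.052, or -0.14 without Week 12. Weeks were counted from Day 14, so Week 0 and Day 14 form a repeat of each diet. From Day 14 to Week 0 C1qa went from 2.60 to 1.63 in LFC and from 1.57 to 1.88 in HFC. The median absolute difference of the repeats over the members was 0.69 in LFC and 0.31 in HFC, beside 0.86 and 1.11 over all genes. C3ar1 was the member with the largest difference between them, from -2.15 to -3.98 in LFC and from -2.33 to -3.88 in HFC.

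The course over time was described by a slope per doubling of days over the 21 LFC and HFC arrays. C3 had a slope of 0.29 (SE 0.10, unadjusted limma p = 0.00563, adjusted p = 0.253), with a saturated spot on 4 of these arrays, and the slopes of the other 8 members lay between -0.11 (C3ar1) and 0.17 (C4b). No probe passed for this trend (0% called in limma, 4057 at an unadjusted p under 0.05). The slope in HFC minus that in LFC was above 0 for 9 of 9 members, with a median of 0.33, beside -0.048 and 38.0% above 0 over all genes. It was 0.52 for C4b (SE 0.24, unadjusted limma p = 0.0384) and 0.39 for C3 (SE 0.18, unadjusted limma p = 0.0406), and their adjusted p was 1.00. No probe passed (0% called in limma, 479 at an unadjusted p under 0.05). The arrays titled BA or BAT were those of Day 1 and Week 9 in HFC, and of Day 6, Week 12 and Week 18 in LFC. Most members were lower on titled arrays, and the part of the title in these slopes was not tested. The 2 arrays with little Ucp1, LFC Day 10 and HFC Week 12, also enter these slopes. LFC Day 10 had the highest LFC values of C2, C3 and Cfb (5.18, 7.34 and 4.43). HFC Week 12 had the highest HFC values of the C1q subunits, C2, Cfb, Cfp and C3ar1. The part of these 2 arrays was not tested either. With 1 time label left out the slope difference ran from 0.36 (without Week 12) to 0.77 (without Day 1) for C4b. For C3 it ran from 0.28 (without Week 15) to 0.47 (without Week 18). In a split made after the values were seen, C3, C4b and Cfb were lower in HFC than in LFC at 5 of the 5 labels from Day 1 to Week 0. Their median differences there were -0.90, -0.82 and -0.76. With the Day 14 labels exchanged, each was lower at 4 of 5. At Day 1 and Day 6 LFC and HFC were scanned on different dates, and 1 array of each of these labels is titled. At Day 10 the LFC array is one of those with little Ucp1, and C3, C4b and Cfb were 7.34, 3.07 and 4.43 on it. The share of all genes lower at 5 of 5 labels was not counted, so these counts have no background beside them. C1qc, C2 and Cfp were lower at 4 of 5 early labels as labelled, C1qa and C1qb at 3 and C3ar1 at 2. At the 5 later shared labels the median was 1.30 for C4b, higher in HFC at 3 of 5, and 0.60 for Cfb, higher at 4 of 5. For C3 the spot was saturated on both arrays of Week 12 and on HFC Week 9, and at the other later labels its difference was 0.53 (Week 3), 2.31 (Week 15) and -0.45 (Week 18).

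**Figure D2:**
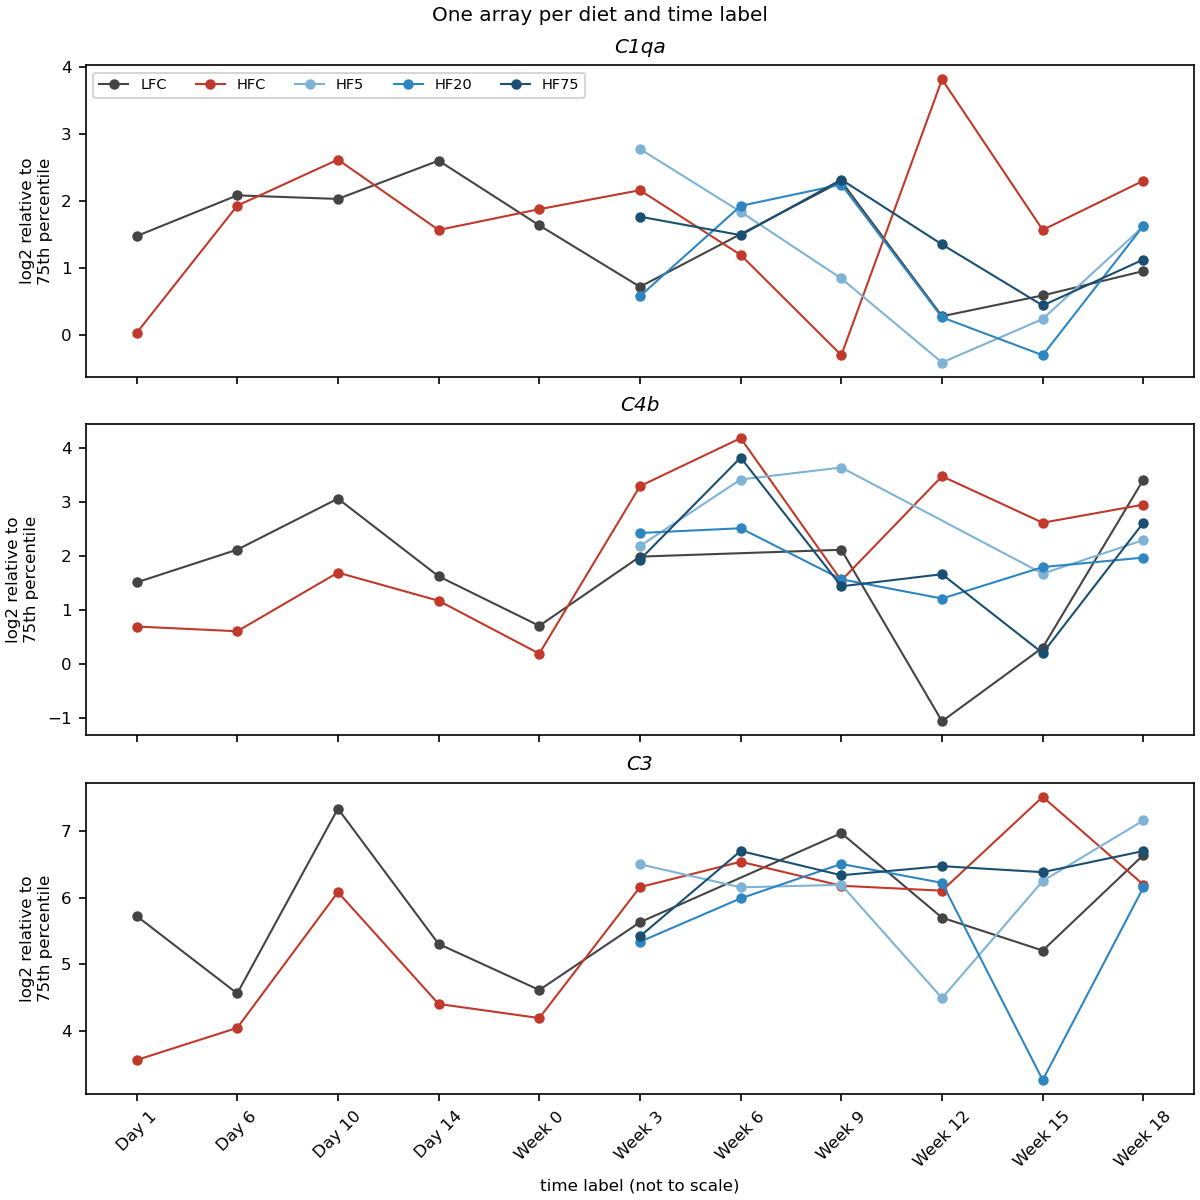
Level of C1qa, C4b and C3 (y axis, log2 relative to the 75th percentile) at each time label (x axis, labels in order and not to scale) for the 5 diets; each point is 1 array, and lines join arrays of a diet across labels without one (LFC at Week 6). HFC lies below LFC for C4b and C3 at each label from Day 1 to Week 0 and C1qa of HFC peaks at 3.82 at Week 12.

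Each KAL-1 dose was then set against HFC, which all doses share as reference. No member passed for any dose, nor did any other probe (0% called for each dose, with 498, 907 and 1210 probes at an unadjusted p under 0.05 for HF5, HF20 and HF75 in limma, and 0 for each by the methods' t-test after adjustment). The difference farthest from 0 was that of Cfb in HF20, at -1.01 (SE 0.56, adjusted p = 0.998), where Cfb was lower at 5 of 6 labels. Without Week 15, which holds the array with 71.4% of spots marked, it was -0.57. C3ar1 differed by 0.78 in HF75 (SE 0.59, adjusted p = 1.00), and by 0.41 without Week 9. The medians over members were -0.017 (HF5), -0.42 (HF20) and 0.081 (HF75), beside -0.035, -0.011 and 0.094 over all genes. C4b was the only member with an unadjusted p under 0.05 in the dose trend over 24 arrays, with a slope of -0.39 per dose step (SE 0.14, unadjusted limma p = 0.012, adjusted p = 0.536). C4b was lower than in HFC at 4 of 5 labels in HF5, 5 of 6 in HF20 and 6 of 6 in HF75, where the difference ran from -2.41 at Week 15 to -0.11 at Week 9. HF20 was scanned on the same date as HFC at 3 of the 6 labels, and HF75 at 2. The Week 12 differences, -2.26 in HF20 and -1.81 in HF75, rest on HFC Week 12, the array with little Ucp1. For Cfb and C4b, the share of all genes lower at as many labels was not counted. No probe passed the dose trend (0% called in limma, 2395 at an unadjusted p under 0.05). The slopes of the other 8 members lay between -0.28 (Cfb) and 0.24 (C3ar1).

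The titles of 9 arrays carry BA or BAT as a token, whose meaning is not stated (HFC Day 1, LFC Day 6, HF5 and HFC Week 9, LFC and HF20 Week 12, HF5 and HF75 Week 15 and LFC Week 18). With diet and time label in the limma fit, 5 of 9 members were lower on the titled arrays and passed the threshold. The background was high, with 52.4% of probes called, 31.8% lower and 20.5% higher. Cfp differed by -1.51 (SE 0.35, adjusted p = 0.00133), C1qb by -1.33 (SE 0.37, adjusted p = 0.00503) and C2 by -1.31 (SE 0.41, adjusted p = 0.00964). C3ar1 differed by -1.26 (SE 0.41, adjusted p = 0.0133) and C1qa by -1.04 (SE 0.39, adjusted p = 0.028). C1qc (-0.74, SE 0.44), Cfb (-0.59, SE 0.44), C4b (-0.31, SE 0.45) and C3 (-0.013, SE 0.37) did not pass. The median of the members was -1.04 and that of all genes -0.37, so that C4b and C3 lay above the shift of all genes and the other 7 below it.

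In values, Cfp ranged from 0.60 to 2.25 on the titled arrays (median 1.31) and from 1.32 to 4.60 on the others (median 2.43). C1qa had medians of 0.28 and 1.70, and C2 of 1.70 and 3.08. The groups overlapped for each of these genes. C3 had medians of 6.20 and 6.13, with 5 of the 7 saturated spots on titled arrays, and its second probe differed by 0.73 (SE 0.48). Within the 3 scan dates that hold both kinds (Week 12, 15 and 18), the titled arrays differed by -1.93 to -1.60 for C2, by -2.98 to -0.58 for Cfp and by -1.32 to -0.28 for C1qa. C1qb was lower on 2 of the 3 dates and C3ar1 on all 3.

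The calls depended on how arrays were scaled and on Week 9. The titled arrays were brighter, with a median 75th percentile of 852.4 intensity units against 81.1 on the others. With quantile normalization, where the median of all genes was 0.10, C1qa, C1qb, C2 and Cfp still passed and C3ar1 did not (-0.53), against 9.92% of all probes called lower. Of the probes called, 67.7% were then higher, against 39.2% in the fit above. With normexp background correction, where the median of all genes was -1.17 and 27.3% of called probes were higher, C1qa (-0.71), C1qb (-0.50), C2 (-0.015) and Cfp (-0.17) did not pass, C3ar1 did (-1.98), and C3 passed as higher (1.65), against 60.7% of all probes called lower and 22.8% called higher. Relative to the median of all genes, 8 of 9 members thus lay higher on the titled arrays after normexp correction and 8 of 9 lower after quantile normalization. Without Week 9 only C2 and Cfp passed. C1qa also missed the limma threshold without Week 18 (adjusted p = 0.0524) and C2 without Week 15 (adjusted p = 0.0582). Other cell markers moved with the title. All 7 neutrophil markers and 6 of 10 macrophage markers were called lower, with median differences of -4.68 and -1.11. All 4 B cell markers, all 4 erythroid markers and 3 of 5 T cell markers were called lower as well. Of the 6 fat cell markers 4 were called higher and 1 lower, with a median of 1.95. Of the 8 fibroblast markers 4 were called lower. The mean level of the macrophage list was -0.87 to 0.44 on titled arrays and -1.04 to 2.62 on the others, and that of the neutrophil list -4.97 to 0.98 and -5.53 to 4.80. Their part in the result was not tested.

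Of the wider complement list, 40 of 43 genes could be tested. In HFC against LFC 0 of 40 passed, with a median of 0.18, and 0 of 40 passed in each dose comparison and in each trend. The 3 differences of greatest size were 1.11 for C1s2 (SE 0.65), 1.02 for the lectin Fcna (SE 0.56) and 0.92 for the receptor C5ar1 (SE 0.86), none of which passed. C1ra differed by 0.30 (SE 0.48), C1rb by 0.37 (SE 0.43) and C1rl by -0.05 (SE 0.53). On the titled arrays 26 of 40 were called lower and 4 higher, with a median of -1.51, beside 31.8% and 20.5% of all probes and a median of -0.37 over all genes. Among the C1r and C1s proteases C1ra (-1.40, SE 0.40), C1s (-1.15, SE 0.32) and C1s2 (-1.75, SE 0.57) were lower, C1rl was higher (1.76, SE 0.41), and C1rb had -0.90 (SE 0.40, adjusted p = 0.0573). Of the lectin pathway 7 of 8 were called lower, namely Masp1, Masp2, Mbl1, Mbl2, Fcna, Colec10 and Colec11. Of the soluble regulators 6 of 7 were called lower, among them Serping1 (the C1 inhibitor, -1.14, SE 0.36), Cfi, Vtn, Clu and Cpn1. C4a, the terminal components Hc, C6 and C9, and the receptors C5ar1, C5ar2, Cr2, Itgam, Itgb2 and Vsig4 were called lower as well. Several of the genes called lower were dim. Mbl1, Mbl2, Colec10 and Masp1 were well above background on 8, 9, 6 and 12 of 39 arrays. Cfi and Cpn1 were so on 11 and 6, and C4a, C9, C5ar1 and Vsig4 on 10, 6, 6 and 10. Masp2, Fcna, Colec11, Serping1, Vtn and Clu were so on 34 or more. The part of array brightness in these calls was not tested. The membrane regulators Cd59a (1.76, SE 0.31) and Cd59b (2.67, SE 0.33), which block the terminal complex, and C8g (2.62, SE 0.60) were called higher. After quantile normalization 13 were called lower and 4 higher, beside 9.92% and 20.8% of all probes. After normexp correction 27 were called lower and 2 higher, beside 60.7% and 22.8% of all probes, so that the share called lower was near the background there. The genes called in 1 direction under all 3 scalings were C5ar2, Colec11, Itgam, Itgb2, Masp1 and Mbl2, all lower, and Cd59a, higher. Of these, Mbl2, Masp1 and Itgam were well above background on 9, 12 and 28 of 39 arrays. C5ar2 and Colec11 were so on 37, and Itgb2 and Cd59a on all 39.

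**Figure D3:**
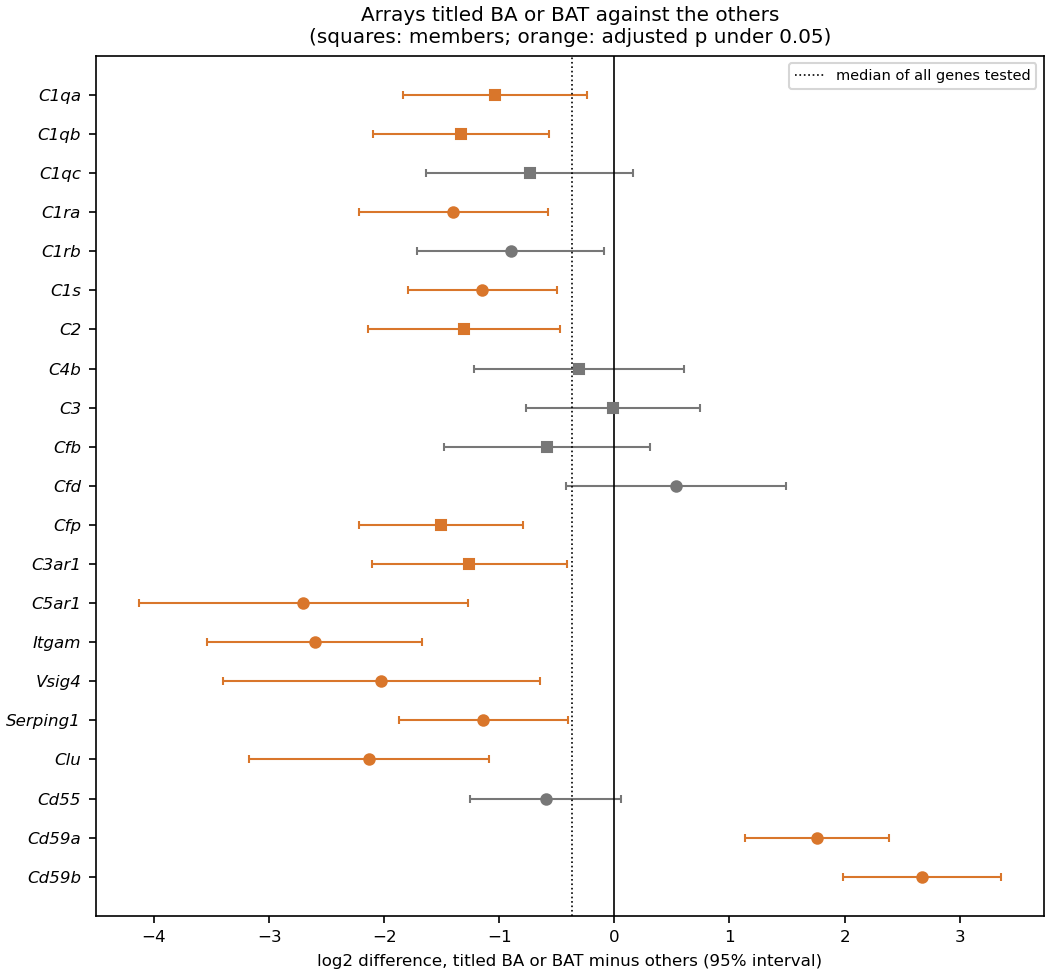
Difference between arrays titled BA or BAT and the others (x axis, log2, bars are 95% intervals) for the 9 members (squares) and 12 genes of the wider list (circles), orange where the limma adjusted p was under 0.05; the dotted line is the median of all genes tested. Cfp lies farthest left among the members, at -1.51, and C3 lies at -0.013, while after normexp correction C1qc, C4b, Cfb and C3 lie above 0.

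To contrast the C1q genes with C3 and the C1r and C1s type genes, levels were correlated across arrays. A total of 90 relations were computed, 36 among members and 54 with a marker gene each, and 50 had an adjusted permutation p under 0.05 for Pearson's r. All values of an array share its 75th percentile and its RNA. The C1q subunits followed each other closely. C1qb and C1qc had r = 0.85 over 37 arrays (rho = 0.82, permutation p = 1e-05 for each, the smallest 100000 resamples can give, adjusted 7.5e-05 and 0.0001). The value was 0.82 without the 2 arrays farthest from the median, 0.89 within time labels, 0.91 within scan dates and 0.74 over the arrays without BA or BAT in the title. C1qa had r = 0.84 with C1qb and 0.83 with C1qc, at the same permutation p. These genes also followed the macrophage gene Emr1. C1qc and Emr1 had r = 0.83 (rho = 0.66, permutation p = 1e-05 for each, adjusted 7.5e-05 and 0.0001), 0.74 without 2 arrays, 0.95 within scan dates and 0.85 over the untitled arrays.

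C3 had lower correlations with the C1q genes. With C1qa it had r = 0.29 (rho = 0.17, permutation p = 0.079 and 0.308, adjusted 0.12 and 0.402), 0.24 without 2 arrays, 0.46 within time labels, 0.37 within scan dates and 0.41 over the untitled arrays. With C1qb it had r = 0.19 (rho = 0.15, permutation p = 0.263 and 0.369, adjusted 0.344 and 0.447). The latter was 0.22 without 2 arrays, 0.36 within time labels, 0.15 within scan dates and 0.21 over the untitled arrays. With C1qc it was 0.46 (rho = 0.35, permutation p = 0.00322 and 0.0307, adjusted 0.00674 and 0.0553), 0.34 without 2 arrays, 0.59 within time labels, 0.56 within scan dates and 0.55 over the untitled arrays. For Pearson's r with the 6 markers, C3 had an adjusted p under 0.05 only with Adipoq, the fat cell hormone adiponectin (r = 0.55, rho = 0.57, permutation p = 0.00023 and 0.00011, adjusted 0.000828 and 0.000582). That r was 0.45 without 2 arrays, 0.48 within time labels, 0.56 within scan dates and 0.61 over the untitled arrays. With Emr1 C3 had r = 0.32 (rho = 0.15, adjusted permutation p = 0.0811 and 0.447). The r with Emr1 was 0.13 without 2 arrays, 0.52 within time labels, 0.50 within scan dates and 0.38 over the untitled arrays. The Adipoq spot was saturated on 7 arrays, 6 of them titled, and the C3 spot on 7, 5 of them titled. With the fibroblast collagen Col1a1 C3 had r = 0.049 (rho = -0.033, permutation p = 0.768 and 0.845, adjusted 0.794 and 0.864), and 0.41 within scan dates. Whether the relation of C3 with 1 gene differed from that with another was not tested.

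C2 and Cfb, which lie side by side on chromosome 17 and have the same kind of protease domain, had r = 0.77 (rho = 0.73, permutation p = 1e-05 for each, adjusted 7.5e-05 and 0.0001), 0.71 without 2 arrays and 0.79 within scan dates. C2 had r = 0.68 with Col1a1 (rho = 0.69, permutation p = 1e-05 and 2e-05, adjusted 7.5e-05 and 0.000164), 0.66 without 2 arrays, 0.73 within scan dates and 0.66 over the untitled arrays. Its r with C1qb was 0.40 over all arrays (rho = 0.31, permutation p = 0.014 and 0.0638, adjusted 0.0257 and 0.11), 0.27 without 2 arrays, 0.59 within scan dates and 0.043 over the untitled ones. With C1qa and C1qc C2 had r = 0.54 and 0.56 (rho = 0.48 and 0.54, permutation p for r = 0.00032 and 0.00017, adjusted 0.00111 and 0.000665), 0.44 and 0.51 without 2 arrays, 0.72 and 0.65 within scan dates and 0.37 and 0.47 over the untitled arrays. Cfb had r = 0.61, 0.51 and 0.70 with C1qa, C1qb and C1qc (rho = 0.48, 0.40 and 0.59, adjusted permutation p for r = 0.000212, 0.00316 and 7.5e-05), 0.48, 0.39 and 0.56 without 2 arrays and 0.71, 0.57 and 0.69 within scan dates. C4b followed C2 and Cfb, with r = 0.61 for each (rho = 0.63 and 0.69, permutation p for r = 8e-05 and 5e-05, adjusted 0.00036 and 0.000237), 0.60 and 0.58 without 2 arrays and 0.63 and 0.68 within scan dates. C4b had r between -0.20 and 0.31 with the 6 markers over all arrays. Within scan dates its r was -0.59 with Ucp1 and 0.49 with Upk3b, and between -0.19 and 0.22 with the remaining markers. Over the untitled arrays it was -0.22 with Ucp1 and 0.25 with Upk3b. Cfp followed C1qa and C1qb (r = 0.69 and 0.70, rho = 0.57 and 0.60, permutation p for r = 2e-05 and 1e-05, adjusted 0.00012 and 7.5e-05), with 0.68 and 0.64 without 2 arrays and 0.76 and 0.82 within scan dates. Among the 6 markers Cfp had its highest r with mesothelial Upk3b, 0.72 (0.72 within scan dates, 0.60 over the untitled arrays). The Upk3b probe was well above background on 5 arrays, and had r = 0.55, 0.58 and 0.58 with C1qa, C1qb and C1qc. With Emr1 Cfp had r = 0.66. With the neutrophil gene S100a8 Cfp had r = 0.60 (rho = 0.61, permutation p = 5e-05 and 7e-05, adjusted 0.000237 and 0.00042), 0.72 without 2 arrays, 0.55 within scan dates and 0.35 over the untitled arrays. C3ar1 followed C1qb (r = 0.75, rho = 0.71, permutation p = 1e-05 for each, adjusted 7.5e-05 and 0.0001), with 0.74 without 2 arrays, 0.81 within scan dates and 0.84 over the untitled arrays.

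**Figure D4:**
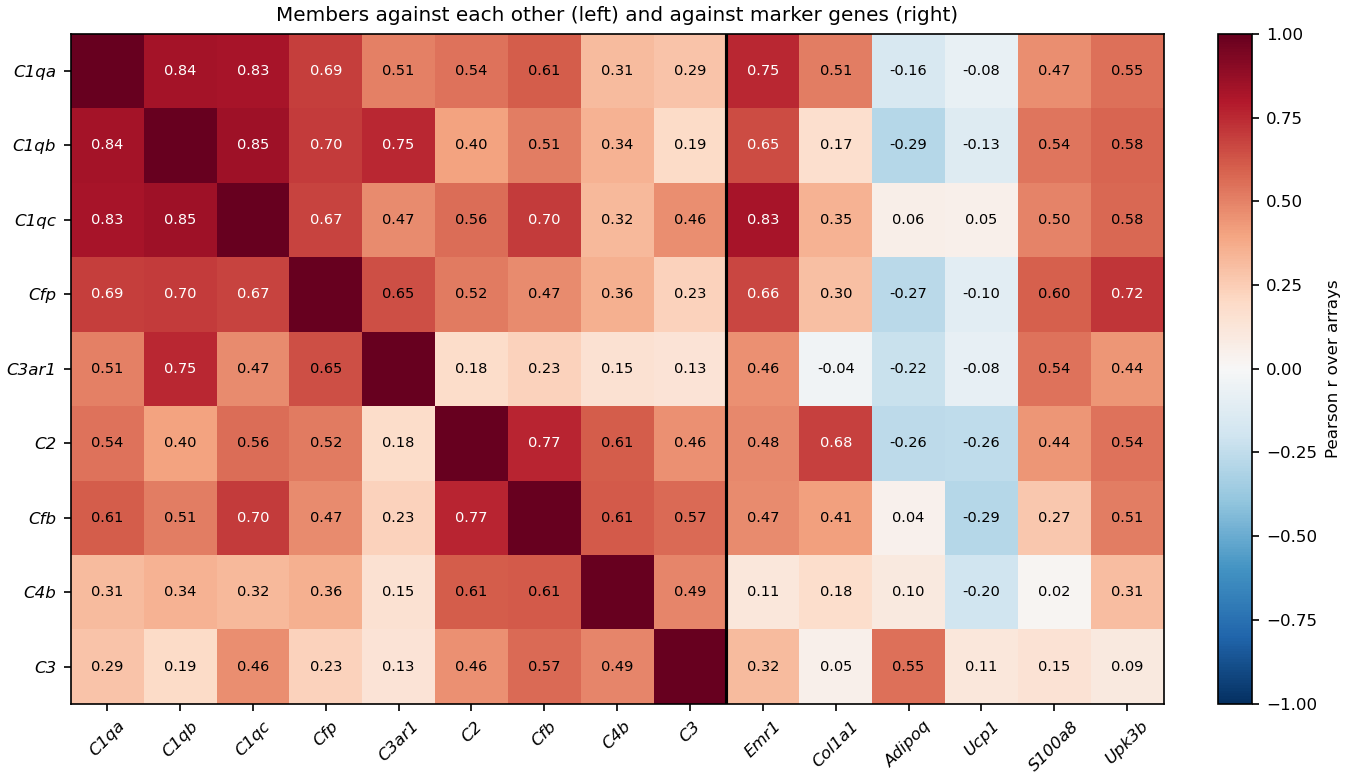
Pearson correlation across arrays (colour and printed value) between the 9 members (rows and left columns) and 6 marker genes (right columns; Emr1 macrophage, Col1a1 fibroblast, Adipoq fat cell, Ucp1 brown fat cell, S100a8 neutrophil, Upk3b mesothelium). Values among the C1q subunits, Cfp and C3ar1 run from 0.47 to 0.85, Cfb has 0.51 to 0.70 with the C1q subunits, and C3 has its highest marker value, 0.55, with Adipoq.

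A family of 24 further relations was added after the data were seen, for C1ra, C1rb, C1s and Serping1, of which 16 had an adjusted p under 0.05. C1ra had r = 0.81 with C2 (rho = 0.86, permutation p = 1e-05 for each, adjusted 6e-05 and 8e-05), 0.83 without 2 arrays and 0.85 within scan dates. C1s had r = 0.80 with C2 and Serping1 had 0.88, at the same permutation p. With Col1a1 the values were 0.69 (C1ra), 0.48 (C1s) and 0.64 (Serping1), and 0.89, 0.70 and 0.78 within scan dates. C1qa too had r = 0.51 with Col1a1, and 0.67 within scan dates. With C1qa the values of C1ra, C1s and Serping1 were 0.51, 0.47 and 0.58 (adjusted permutation p = 0.00216, 0.00586 and 0.00044). Those were 0.73, 0.67 and 0.77 within scan dates and 0.44, 0.28 and 0.42 over the untitled arrays. With Emr1 they were 0.54, 0.36 and 0.45, and over the untitled arrays 0.47, 0.11 and 0.30. With Adipoq they were -0.29, -0.31 and -0.33, with adjusted permutation p of 0.081, 0.0731 and 0.0561, and over the untitled arrays 0.15, -0.097 and 0.0099. C1rb had r = -0.55 with Adipoq (rho = -0.59, permutation p = 0.00044 and 0.00015, adjusted 0.00132 and 0.0006), -0.57 without 2 arrays, -0.61 within scan dates and -0.36 over the untitled arrays. C1rb had r = 0.34 with C2 (rho = 0.36, permutation p = 0.0395 and 0.0281, adjusted 0.0557 and 0.0413). With C1qa, Emr1 and Col1a1 it had r = 0.30, 0.059 and 0.28 (adjusted permutation p for r = 0.081, 0.722 and 0.0973).

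Among 13476 genes well above background on at least 30 arrays, the 5 most like C1qa by Pearson's r over arrays included Fcrls (0.89), Folr2 (0.88), Fcgr3 (0.84) and Batf3 (0.84). C1qb followed as number 6 and C1qc as number 10. Those most like C3 were Cxcl14 (0.77), Hp (0.77), Dpep1 (0.76), Nupr1 (0.74) and Pdxk (0.74), and the closest member was Cfb, as number 301. The spread of the members over arrays was ordinary, with an SD from 0.86 (Cfp) to 1.17 (C2), beside a median of 1.15 over all genes.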

How the data were processed

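RNA of brown fat stromal vascular cells was hybridised to 39 Agilent mouse arrays of 1 colour. Per the file headers, each deposited scanner file gives background-subtracted spot intensity from Feature Extraction 10.5.1.1 (the submitters' processing notes name 9.1), with no scaling between arrays. The genome build was not given in the sources used here. The deposited series table was used for gene symbols only. Its value columns hold the authors' log2 differences from the LFC array of a time label, and were not used. It takes the Day 14 array titled HFC as baseline where it takes the LFC array elsewhere, so both labels were also exchanged. The Week 12 array grouped as HF20 by its source name has a characteristic that names the high fat diet alone. Weeks were counted from Day 14.

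The processed signal was taken as log2 minus the 75th percentile of the array. Marked spots were dropped, spots of a probe averaged, and probes kept when well above background on at least 6 arrays (34035 probes). A gene was read from its brightest probe. Arrays have no read depth. Signal over background is the limit, with 31.2% to 98.0% of spots well above it. Differences were fitted with limma 3.58.1 in R 4.3.3, with diet and time label over 39 arrays, Benjamini-Hochberg adjustment over all probes and a threshold of 0.05. Whether samples of 1 diet came from separate animals is not given per array. In data simulated for HFC against LFC over 34035 probes, 3 of 67 changes of 2-fold, 34 of 67 of 4-fold and 59 of 66 of 16-fold were recovered. Time labels pair the diets in the fit. The residuals of HFC and LFC under the same label correlated with a median of 0.18, over 0.1 at 6 of 10 labels, so the pairing is not general and the time label was kept as planned. Correlations used 100000 resamples (Python 3.11.15, numpy 2.4.6). Other scalings, filters, blocks by slide or scan date (statmod 1.5.0), weights and left-out arrays were tried.

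The members, gene lists and tests were chosen with earlier results of these data known. The text names the 9 members, the genes of the wider list past the threshold in any contrast, the 3 with the greatest difference in HFC against LFC, the C1r and C1s type genes, Serping1, 6 marker genes, and the 5 genes most like C1qa and C3, except for items that are not reported here. Upk3b did not pass the filter and was used for relations only. Files give C1r for C1ra, Gm5077 for C1s2 and Gpr77 for C5ar2.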

Additional observations from a re-analysis of the deposited data

Results flagged for a closer look

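Within diets of 4 to 10 arrays, 36 sets of values of a member were examined for a value far from the rest, of which chance marks about 1 in 20, and 3 were found. C3 was 3.26 on the HF20 array of Week 15, with the next HF20 value at 5.34, and Cfb on the same array was -0.54, with the next at 1.63. This is the array with 71.4% of its spots marked. C3 was 5.42 on the HF75 array of Week 3, with the next HF75 value at 6.34. No explanation was tested for these values.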

How the results depend on the processing

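The 24 member differences and 16 counts in the text were followed under 13 other settings, with each of 11 time labels left out, and under 2 settings chosen after seeing the data. Apart from single time labels, 281 values of member differences kept their direction and side of the threshold, 30 turned in sign, 5 lost and 3 gained a call, and 1 that turned, C3 for the titled arrays with normexp, also gained a call. Of 1174 values of the other member differences 142 turned in sign, and none gained or lost a call. The cause was not tested for any of these.

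For HFC against LFC, the sign turned without the arrays with over 10% of spots marked for C1qa (-0.070), C1qb (-0.086), C2 (-0.23) and Cfp (-0.17), and without LFC Day 10 and HFC Week 12 for the same genes (-0.18, -0.19, -0.094 and -0.23). Quantile normalization turned C1qc (0.092) and C3 (0.17), normexp C1qc (0.19) and C3ar1 (-0.25), leaving out the titled arrays C1qc (0.21) and C2 (-0.44), array weights C2 (-0.48), C4b (-0.17) and Cfp (-0.12), the exchanged Day 14 labels C1qc (0.19) and Cfb (0.25), and the mean of a gene's probes C2 (-0.061) and C3 (0.096). With 1 time label left out the ranges were -0.11 to 0.51 (C1qa), -0.14 to 0.44 (C1qb), -0.39 to 0.20 (C1qc), -0.39 to 0.27 (C2), -0.18 to 0.48 (C4b), -0.61 to 0.053 (Cfb), -0.25 to 0.45 (Cfp), -0.59 (without Week 15) to -0.12 (without Day 1) for C3 and 0.48 (without Week 12) to 0.99 (without Week 9) for C3ar1.

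For the titled arrays, normexp turned C1qc (0.31), C4b (0.24), C3 (1.65) and Cfb (0.49). C4b turned without the arrays over 10% marked (0.030), and C3 with quantile normalization (0.36), without LFC Day 10 and HFC Week 12 (0.022), with the exchanged labels (0.0038) and with the mean of probes (0.36). Array weights brought C1qc (-1.59) and Cfb (-0.97) past the threshold, and leaving out arrays over 10% marked C1qc (-0.94). With 1 time label left out C4b ranged from -0.63 to 0.22 and C3 from -0.31 to 0.23.

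Counts of probes called moved as follows. HFC against LFC had 4 with quantile normalization, 2 among probes well above background on all 39 arrays, 32 with array weights, 2 without the titled arrays, and 0 to 1 with a time label left out. HF75 against HFC had 3 without the titled arrays. The dose trend had 23 with array weights and 0 to 7 with a time label left out. The time trend had 6 with quantile normalization, 12 among probes well above background everywhere, 156 with array weights, and 0 to 1 with a time label left out. The titled contrast had 10453 with quantile normalization, 28422 with normexp, 4923 among probes well above background everywhere, and 10061 (without Week 12) to 20338 (without Day 1), and its members called were 2 with normexp, 3 among the probes well above background everywhere, where C1qa and C3ar1 were not tested, and 2 (without Week 9) to 5. Without the time label as a block, the pairing by label, 0 probes were called in HFC against LFC and 5 members in the titled contrast, and no call of a member changed.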
